A study of Mus musculus with 9 samples.

Results

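Liver RNA of mice given concanavalin A (ConA) was compared with liver RNA of saline-treated mice in 6 of the 9 libraries of the study, chosen by their labels: 3 labelled ConA and 3 labelled Control. Per the labels, all donors were wild-type C57BL/6 males (C57BL/6J in the growth protocol) aged 8 weeks and weighing 20 to 25 g. Control mice received phosphate-buffered saline through the tail vein, and ConA mice received 20 mg/kg of ConA in the same saline by the same route. Livers were taken 12 h after ConA, with 3 animals per group, and RNA was made from whole tissue rather than sorted cells. ConA was given once, and nothing in the labels names pooled animals. The other 3 libraries, from mice given MSA before ConA (MSA_ConA), are not compared here; they entered the scaling, the expression filter and the estimate of spread between libraries. Each library carries a number, and values of a group are given in the order of numbers 1, 2 and 3.

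Concanavalin A is a plant lectin that binds sugars on cell surfaces and activates T cells and natural killer T cells in the liver. In the mouse model built on it, interferon gamma and tumour necrosis factor from these cells act on hepatocytes, endothelium and Kupffer cells, the resident macrophages. Hepatocytes respond to interleukin 6 through STAT3 by secreting acute-phase proteins, and injury draws in neutrophils.

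The 6 libraries held 14137973 to 17276391 counts, and levels are given as CPM, in which each library's counts are scaled to a common total after TMM (trimmed mean of M values). Of 42188 genes in the table, 14603 passed the expression filter and were tested. The libraries numbered 1 stood apart from those numbered 2 and 3 in Control as well as in ConA, among others in transcripts that differ with sex, strain or time of day. Some of these, such as Elovl3 and H2-K1, also differed between Control 1 and ConA 1. Xist, the RNA of the inactive X chromosome in female cells, measured 0.0745, 864 and 667 CPM in Control and 0.484, 786 and 855 CPM in ConA, so that the 4 libraries numbered 2 or 3 went against their label of male. Elovl3, a fatty acid elongase of male liver, measured 524, 1.88 and 0.624 CPM in Control and 91.8, 0.566 and 0.681 CPM in ConA. The mitochondrial transhydrogenase gene Nnt, partly deleted in C57BL/6J, measured 30.2, 168 and 219.7 CPM in Control and 34.5, 223 and 245 CPM in ConA, and the class I histocompatibility gene H2-K1, which differs between strains, measured 2021, 165 and 103 CPM in Control, 8625, 105 and 109 CPM in ConA. The clock genes Arntl (22, 1.83 and 1.35 CPM in Control, 26.2, 2.57 and 1.59 CPM in ConA) and Dbp (10.3, 251 and 222 CPM in Control, 6.0, 171 and 163 CPM in ConA), which peak at opposite times of day, divided by number too. Sex, strain and time of collection of the tissue can therefore not be told apart from library number, and each library is called by its label below. Hepatocyte genes were high throughout: Alb, the gene of albumin, measured 76677, 77839 and 100174 CPM in Control and 64100.1, 91272 and 95579.5 CPM in ConA.

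Transcripts of 2 other tissues were found in the library labelled ConA 2, and those of muscle at a lower level in ConA 3 as well. Skeletal muscle markers, 14 genes, summed to 11.3, 8.71 and 6.45 CPM in Control and 4.74, 416 and 76.4 CPM in ConA. Acta1, skeletal muscle actin, had no count in Control 1 and Control 3 and measured 0.365 CPM in Control 2, against 0.29, 99.6 and 20.1 CPM in ConA. Adrenal markers, a list of 13 genes drawn up after their values were seen, summed to 4.1, 5.69 and 5.93 CPM in Control and 2.71, 1568 and 4.94 CPM in ConA. They include genes of steroid synthesis in the cortex: Cyp11b1, which completes corticosterone, had 307 CPM in ConA 2 and no count in the 5 other libraries, where 3 counts are worth 0.154 to 0.29 CPM. Star, which carries cholesterol into mitochondria for steroid synthesis, measured 3.35, 2.87 and 3.07 CPM in Control and 2.42, 488 and 2.33 CPM in ConA. Genes of the catecholamine-making medulla were present as well, with Chga, a granule protein, at 18.7 CPM and Th, tyrosine hydroxylase, at 7.0 CPM in ConA 2 and at no count in the 5 others. All 13 adrenal markers were detected in ConA 2, and 8 to 10 of them had no count in each other library. The adipocyte gene Cfd, named like Star, Cyp11b1, Chga and Th after its values were seen, measured 0.596, 1.36 and 0 CPM in Control and 0.967, 31.8 and 0.625 CPM in ConA. Among tested genes of at least 10 CPM, 29 stood at least 4-fold above each of the 5 other libraries in ConA 2, 45 in Control 1, 587 in ConA 1 and 0 in Control 2, Control 3 and ConA 3. What these transcripts contributed to the comparisons below was not tested, except where ConA 2 was left out. Those runs keep the muscle transcripts of ConA 3.

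**Figure D1:**
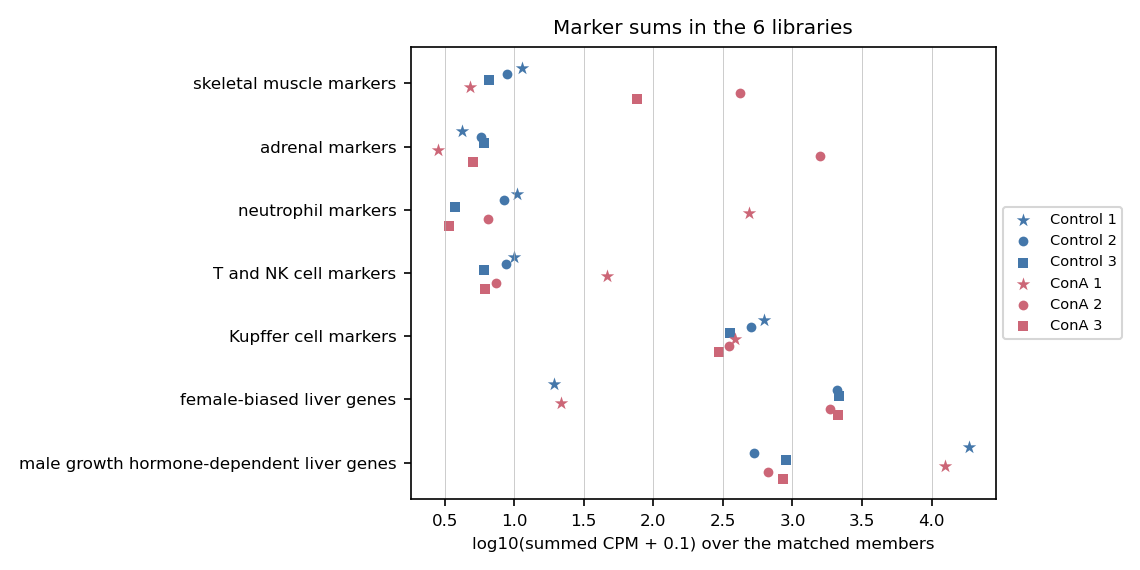
Summed level of 7 marker lists in each library, as log10 of the summed CPM plus 0.1 over all list members found in the table. Colour gives the group and the symbol the library number. Muscle markers reach 416 CPM and adrenal markers 1568 CPM in ConA 2, neutrophil markers are high in ConA 1, and the lists of sex-biased genes divide by number in both groups.

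Across all 3 libraries per group, no gene passed the test for a difference between ConA and Control. The quasi-likelihood test of edgeR on 14603 genes called 0 higher (0%) and 0 lower (0%) at a Benjamini-Hochberg adjusted p under 0.05, and 563 genes (3.86%) had an unadjusted p under 0.05. That count was 126 without Control 1, 231 without Control 2, 228 without ConA 1 and 956 without the MSA_ConA library numbered 1. The smallest adjusted p in edgeR was 0.9997. The spread within each group that this test uses holds the division by number, so the count of 0 does not show that ConA had no effect. With a block for number 1 against numbers 2 and 3, edgeR also called 0 genes, with 1024 at an unadjusted p under 0.05. That block removes a shift shared by the groups but takes the ConA effect to be equal in each number. DESeq2 called 2 genes, both encoding skeletal muscle proteins: Myh2, a fast myosin heavy chain (0, 0 and 0 CPM in Control and 0, 39.5 and 7.67 CPM in ConA), and Atp2a1, the calcium pump of fast fibres (0, 0.313 and 0.208 CPM in Control, 1.74, 44.3 and 6.98 CPM in ConA). With limma-voom 0 genes were called. The transcripts that carried an inflammatory pattern were high in ConA 1 and near control level in ConA 2 and ConA 3, so each number is described in turn.

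In the libraries numbered 1, the ConA library held far higher levels of NF-kappa-B, acute-phase and stress transcripts than Control. The pair was compared over 8861 tested genes that reached 10 CPM in ConA 1 or Control 1. As ratios of CPM + 1, ConA 1 exceeded Control 1 by 4-fold or more for 858 of them (9.68%), and 351 (3.96%) were lower by as much. Of the same genes 53.4% were higher and 46.6% lower by any amount. The shares were 52.4% and 47.6% over the 8308 genes that reached 10 CPM in number 2, and 47.2% and 52.8% over the 8118 that did so in number 3. The median log2 ratio over all tested genes was -0.05. With library totals in place of TMM that median moved to -0.41 and the counts to 539 higher and 629 lower. Against all 5 other libraries at once, 587 genes (6.62%) reached 4-fold higher in ConA 1 and 127 (1.43%) 4-fold lower, or 346 and 328 with library totals. There is 1 library per group in this pair, so these ratios have no replicate check, and their 95% limits are exact and cover counting error only.

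Neutrophil and T cell chemokines and the feedback inhibitors of NF-kappa-B were among the highest ratios. NF-kappa-B is held in the cytoplasm by inhibitor proteins and, once freed, turns on genes that include its own inhibitors. Tnfaip3, the gene of the inhibitor A20 (chromosome 10, 17118765 to 17134720, minus strand of the C57BL/6NJ assembly used by the table), measured 1.41, 3.29 and 2.86 CPM in Control and 1072, 4.43 and 4.88 CPM in ConA, and was 757-fold (485 to 1259) higher in number 1. Cxcl2, which attracts neutrophils through the receptor CXCR2, measured 2.09, 0.261 and 0 CPM in Control and 817, 0 and 0.227 CPM in ConA, with no count in Control 3 and ConA 2, where 3 counts are worth 0.156 and 0.154 CPM. Cxcl1, which binds the same receptor, measured 4.84, 6.52 and 8.58 CPM in Control and 897, 12.6 and 15.8 CPM in ConA. Cxcl10, an interferon-induced ligand of CXCR3 on T cells, measured 13.9, 2.87 and 2.13 CPM in Control and 3505, 3.65 and 2.27 CPM in ConA. For each of these genes ConA 1 was the only high library, and for Tnfaip3 and Cxcl1 ConA 2 and ConA 3 also lay above all 3 controls. Of 16 chemokines listed, 15 were in the table and 8 were tested, 6 were at least 4-fold higher in ConA 1, and the median log2 ratio over tested members was 5.84, against 0.11 and 0.25 in numbers 2 and 3. The list of NF-kappa-B subunits and inhibitors had 14 of 16 members tested and 13 at least 4-fold higher, with a median of 3.17. Among them were Relb, a subunit of the non-canonical pathway (3.57, 2.61 and 1.4 CPM in Control, 165, 2.78 and 1.82 CPM in ConA) and Nfkbia, the inhibitor IkB-alpha (29, 29 and 26.2 CPM in Control, 1742, 26.5 and 26.9 CPM in ConA). Cyld, a deubiquitinase of the pathway, was the tested member that did not reach 4-fold (named for this after its values were seen), at 10.8 CPM in Control 1 and 15.2 CPM in ConA 1.

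The sequence before the transcription start is shown for 4 of these genes that were high together in ConA 1 and hold a match to a motif of NF-kappa-B, interferon or AP-1 signalling. Each line gives the 250 bases upstream of the start of RefSeq's GRCm38.p6 annotation, 5′ to 3′ on the gene's strand. Capitals mark matches, on either strand, to the kappa-B consensus, the interferon-stimulated response element consensus or the AP-1 consensus TGANTCA. No marked match overlaps another.
Cxcl1 (chr5:90890995-90891244, plus strand): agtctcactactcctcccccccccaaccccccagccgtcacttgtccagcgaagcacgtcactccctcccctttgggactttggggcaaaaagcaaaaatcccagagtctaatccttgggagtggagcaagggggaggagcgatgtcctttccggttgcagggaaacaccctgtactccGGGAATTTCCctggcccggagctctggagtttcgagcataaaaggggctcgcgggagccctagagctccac
Cxcl2 (chr5:90903649-90903898, plus strand): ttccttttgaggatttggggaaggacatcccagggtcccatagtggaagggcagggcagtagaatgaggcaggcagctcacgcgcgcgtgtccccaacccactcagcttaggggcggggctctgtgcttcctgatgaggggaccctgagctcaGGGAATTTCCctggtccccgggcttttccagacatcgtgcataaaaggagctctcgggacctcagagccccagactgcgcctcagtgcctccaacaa
Nfkbia (chr12:55492648-55492897, minus strand): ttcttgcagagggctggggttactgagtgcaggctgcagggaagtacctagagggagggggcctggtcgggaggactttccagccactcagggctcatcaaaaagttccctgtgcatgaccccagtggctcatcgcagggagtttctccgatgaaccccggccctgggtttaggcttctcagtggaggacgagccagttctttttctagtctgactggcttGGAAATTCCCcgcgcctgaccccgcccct
Cxcl10 (chr5:92348890-92349139, minus strand): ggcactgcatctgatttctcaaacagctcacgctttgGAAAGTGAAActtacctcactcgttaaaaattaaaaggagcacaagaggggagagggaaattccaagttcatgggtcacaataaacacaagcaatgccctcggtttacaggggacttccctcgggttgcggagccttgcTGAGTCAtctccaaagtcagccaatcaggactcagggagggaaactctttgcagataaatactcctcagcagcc
The kappa-B match began 71 bases before the start of Cxcl1, 97 before that of Cxcl2 and 29 before that of Nfkbia. Cxcl10 held an interferon-stimulated response element match 213 bases and a TGANTCA match 74 bases before its start. Over 27025 windows of the same length, 0.337% held the kappa-B consensus, 3.04% the interferon-stimulated response element consensus and 6.87% TGANTCA. Over the 6524 windows of genes of at least 10 CPM in number 1 the shares were 0.261%, 2.53% and 4.55%. Of the genes at least 4-fold above each other library in ConA 1, 395 had a window. Among these, 5 held the kappa-B consensus (1.27%), 25 the interferon-stimulated response element consensus (6.33%) and 42 TGANTCA (10.6%). Other motifs were searched too, with shares given for these windows and then for the 6524. They were 10.1% and 6.24% for the TATA box, 8.1% and 5.79% for the GAS element and 3.29% and 2.94% for CRE. The metal response element had 50.9% and 52.1%, the antioxidant response element 1.52% and 2.18%, and the serum response element 0% and 0.0307%. These matches describe the letters only, and no binding was measured.

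**Figure D2:**
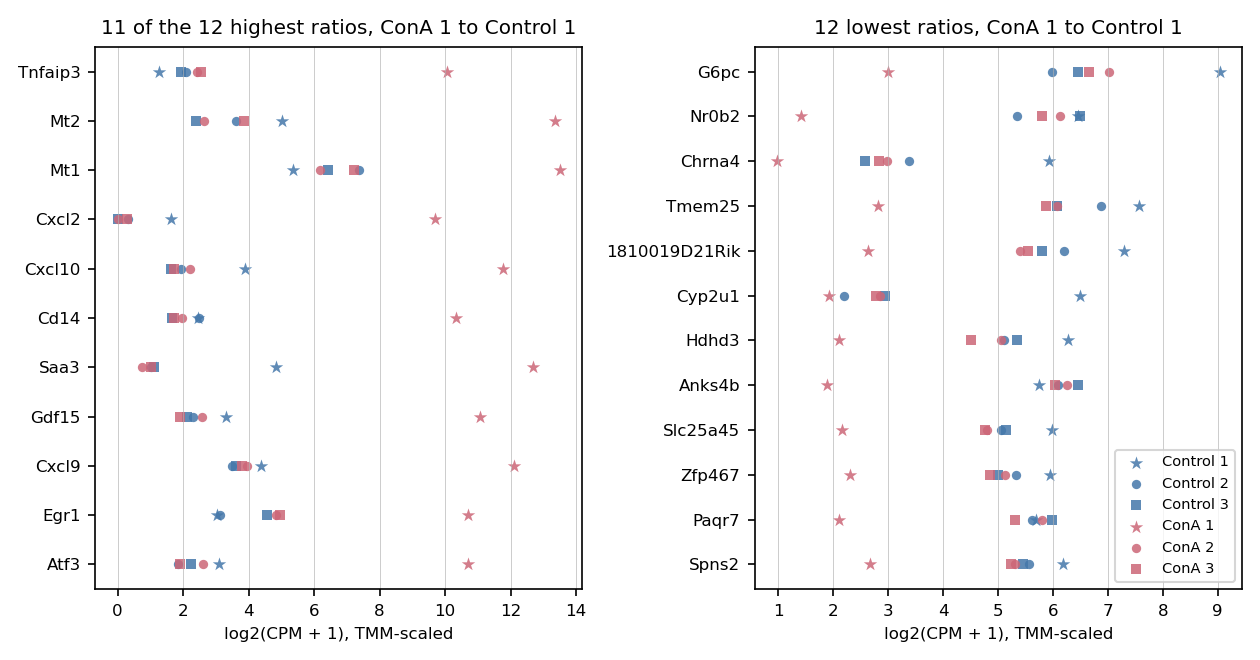
Level of 11 of the 12 genes with the highest and of the 12 with the lowest ratio of ConA 1 to Control 1 among those that reach 50 CPM in either of the pair, as log2 of CPM plus 1 in each of the 6 libraries. Colour gives the group and the symbol the number. In the left panel ConA 1 lies to the right of all 5 other libraries for each gene, and in the right panel it lies to the left of all 5.

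Immediate early factors, which are transcribed within minutes of a stimulus without new protein synthesis, had the highest median of any list with at least 5 tested members. Of 17 listed, 15 were tested and 13 were at least 4-fold higher in ConA 1, and the median log2 ratio was 6.23 in number 1, 0.42 in number 2 and -0.32 in number 3. Atf3, a stress-induced repressor, measured 7.52, 2.61 and 3.74 CPM in Control and 1652, 5.1 and 2.73 CPM in ConA. Egr1, a zinc finger factor, measured 7.15, 7.72 and 22.5 CPM in Control and 1666, 27.7 and 29.9 CPM in ConA, so ConA 2 and ConA 3 also lay above all 3 controls. Ier3 and Junb were high in ConA 1 alone, with Ier3 at 2.09, 1.1 and 1.92 CPM in Control and 453, 1.8 and 1.42 CPM in ConA and the AP-1 subunit Junb, named after its values were seen, at 20.4, 23.5 and 24 CPM in Control and 2224, 22.8 and 24.5 CPM in ConA. Fosl2, another AP-1 subunit named after its values were seen, measured 5.59, 4.75 and 4.06 CPM in Control and 260.3, 38.5 and 4.54 CPM in ConA, with ConA 2 high as well as ConA 1.

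Genes of growth arrest and the p53 response were high in ConA 1 too. All 14 listed were tested, 8 were at least 4-fold higher, and the median log2 ratio was 3.39. Gdf15, a secreted stress hormone, measured 9.01, 3.91 and 3.38 CPM in Control and 2143, 4.99 and 2.78 CPM in ConA, a ratio in number 1 of 238-fold (199 to 287). Gadd45b, a stress-kinase activator, measured 2.16, 2.04 and 1.98 CPM in Control and 458, 2.99 and 1.25 CPM in ConA, and Gadd45a measured 2.61, 9.65 and 16 CPM in Control and 548, 12.8 and 12.2 CPM in ConA. For these genes ConA 1 lay above all 5 others, whereas Gadd45b in ConA 2 was above all 3 controls as well. The cyclin kinase inhibitor Cdkn1a, a p53 target named after its values were seen, measured 9.01, 1.36 and 0.624 CPM in Control and 744, 1.65 and 0.454 CPM in ConA, and Mdm2, which degrades p53 and was likewise named, 38.5, 31.4 and 31.2 CPM in Control and 169, 37.8 and 36.7 CPM in ConA. Other p53 targets, Bax, Bbc3 and Ccng1, named after their values were seen, differed less: 37.6 and 72.9 CPM, 17.7 and 37.5 CPM, and 18.5 and 15.4 CPM in Control 1 and ConA 1. Proliferation genes differed little: of 17 listed, 15 were tested, 1 was at least 4-fold higher, and the median was 0.25, or 0 genes and -0.16 with library totals in place of TMM. That gene was Rrm2, a ribonucleotide reductase subunit, at 4.54 CPM in Control 1 and 29.4 CPM in ConA 1.

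The acute-phase programme and its interleukin-6 signalling genes were higher in ConA 1. Of 24 acute-phase genes listed, 22 were in the table, all 22 were tested and were higher, and 19 were at least 4-fold higher, with a median log2 ratio of 2.89 against 0.05 and -0.22 in numbers 2 and 3. Saa3, an inducible serum amyloid A, measured 27.3, 1.04 and 1.14 CPM in Control and 6602, 0.669 and 1.02 CPM in ConA. Lcn2, which binds bacterial siderophores, measured 58.6, 9.86 and 12.2 CPM in Control and 10608, 11.8 and 7.44 CPM in ConA. The metallothioneins bind zinc and copper. Mt1 measured 40.1, 166 and 84.2 CPM in Control and 11689, 70.9 and 148 CPM in ConA, and Mt2 31.4, 11.2 and 4.21 CPM in Control and 10435, 5.25 and 13.5 CPM in ConA. For each of these 4 genes ConA 1 was above all other libraries, and ConA 2 and ConA 3 did not exceed the highest control. Hp, haptoglobin, was named after its values were seen and had already 9221 CPM in Control 1 against 1702 and 1658 CPM in the other controls, with 41859, 1431 and 1074 CPM in ConA. Of 16 tested JAK-STAT and interleukin-6 family genes, from 18 listed, 9 were at least 4-fold higher, with a median of 2.60. These included the feedback inhibitors Socs1 (0.521, 0.574 and 0.364 CPM in Control, 175, 0.206 and 0.341 CPM in ConA) and Socs3 (17.9, 5.43 and 7.54 CPM in Control, 1324, 5.97 and 3.97 CPM in ConA), the kinase Pim1 (14.7, 5.64 and 10.7 CPM in Control, 1036, 8.6 and 9.99 CPM in ConA) and Osmr, the oncostatin M receptor chain named after its values were seen (3.95, 3.29 and 3.12 CPM in Control, 47.1, 4.53 and 3.18 CPM in ConA). Stat3 itself measured 75, 82.7 and 99.4 CPM in Control and 886, 95.9 and 94.7 CPM in ConA.

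Iron and haem genes differed in both directions in ConA 1. Of 17 listed, 16 were tested, 6 reached 4-fold higher and 1 reached 4-fold lower, and the median log2 ratio was 0.92. Hmox1, which degrades haem, measured 19, 17.5 and 17.7 CPM in Control and 3514, 14.5 and 13.1 CPM in ConA and was 185-fold (164 to 210.1) higher in number 1. Steap4, a metalloreductase, measured 61.3, 71.1 and 88.7 CPM in Control and 4502, 94.3 and 95.3 CPM in ConA, and Slc39a14, which imports zinc and iron not bound to transferrin, measured 134, 239 and 276 CPM in Control and 2088, 263 and 304 CPM in ConA. Hamp, the gene of hepcidin, which makes cells degrade the iron exporter ferroportin, measured 343, 1039 and 643 CPM in Control and 3056, 495 and 497 CPM in ConA. ConA 2 and ConA 3 lay within or below the range of the controls for Hmox1 and Hamp, and above all 3 controls for Steap4. Slc40a1, the gene of ferroportin, was the gene at least 4-fold lower, at 70.005, 188 and 208 CPM in Control and 12.4, 174 and 251 CPM in ConA, and was named after its values were seen. Of 12 NRF2 targets tested, from 17 listed, 4 were at least 4-fold higher, with a median of 1.79; besides Hmox1 they include Slc7a11, the cystine transporter (0.372, 0.731 and 0.312 CPM in Control, 19.1, 0.206 and 1.02 CPM in ConA) and Gclc, which begins glutathione synthesis (186, 209 and 261 CPM in Control, 881, 252 and 355 CPM in ConA). Nqo1, a quinone reductase of the same list named after its values were seen, measured 13.2 CPM in Control 1 and 8.8 CPM in ConA 1.

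The inducing cytokines interferon gamma, tumour necrosis factor and interleukin 6 had transcripts below 1 CPM in every library but ConA 1. Of 20 cytokines and growth factors listed, 9 were tested and 4 were at least 4-fold higher in ConA 1 (median log2 ratio 1.68). Il1rn, the interleukin-1 receptor antagonist, measured 3.28, 3.03 and 2.29 CPM in Control and 612, 2.73 and 4.09 CPM in ConA, and Il1b, interleukin 1 beta, which it blocks at the receptor, 1.94, 2.24 and 1.25 CPM in Control and 18.3, 2.52 and 1.76 CPM in ConA. The alarmin Il33, named like Il1b after its values were seen, measured 1.34, 2.3 and 3.95 CPM in Control and 17.9, 2.06 and 3.97 CPM in ConA. Ifng, interferon gamma, measured 0.521, 0.0522 and 0 CPM in Control and 2.71, 0.309 and 0.0568 CPM in ConA, Tnf 0.67, 0.209 and 0.312 CPM in Control and 14.6, 0.463 and 0.454 CPM in ConA, and Il6 0, 0 and 0 CPM in Control and 4.74, 0.0515 and 0 CPM in ConA, where 3 counts are worth 0.154 to 0.29 CPM. Each of the 3 was highest in ConA 1.

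Genes induced by interferon gamma were higher in ConA 1 and on balance slightly lower in ConA 2 and ConA 3. Of 20 listed, 19 were tested, all 19 were higher and 11 were at least 4-fold higher in number 1, with a median log2 ratio of 2.21 against -0.23 and -0.26 in numbers 2 and 3. Gbp2, a GTPase that attacks pathogen vacuoles, measured 3.28, 6.37 and 5.51 CPM in Control and 824, 6.8 and 5.51 CPM in ConA. Gbp5, which promotes inflammasome assembly, measured 1.19, 2.14 and 1.51 CPM in Control and 219, 1.7 and 2.73 CPM in ConA, and Irf1, a transcription factor of the pathway, 44.1, 47.6 and 46.9 CPM in Control and 1743, 37.4 and 37.9 CPM in ConA. B2m, the light chain of class I molecules named after its values were seen, measured 2117, 1332 and 1054 CPM in Control and 2324, 1077 and 1162 CPM in ConA. Cd274, the ligand of the checkpoint receptor PD-1, measured 3.65, 5.64 and 5.15 CPM in Control and 172, 8.8 and 6.59 CPM in ConA, with ConA above Control in all 3 numbers. Of 18 death receptor and pyroptosis genes listed, 16 were tested and 5 were at least 4-fold higher (median 1.73), including Casp4, the caspase that senses cytosolic lipopolysaccharide (1.12, 1.67 and 1.35 CPM in Control, 25.5, 1.54 and 1.08 CPM in ConA) and Zbp1, which starts necroptosis (22.5, 9.76 and 8.79 CPM in Control, 122, 6.8 and 4.49 CPM in ConA).

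Adhesion, coagulation and matrix genes gave a partial pattern. Of 13 adhesion genes listed, 10 were tested and 6 were at least 4-fold higher in ConA 1, with a median log2 ratio of 2.40. Icam1, which binds leukocyte integrins, measured 17.8, 17.1 and 18.9 CPM in Control and 1553, 16.4 and 16.9 CPM in ConA, and Vcam1, another integrin ligand, 5.66, 10.02 and 6.6 CPM in Control and 128, 10.6 and 9.25 CPM in ConA. Among 21 coagulation and fibrinolysis genes, all tested, 4 were at least 4-fold higher and the median was 0.82. Among these 4 were Plaur, the urokinase receptor (0.894, 0.365 and 0.208 CPM in Control, 123, 0.257 and 0.17 CPM in ConA), F3, tissue factor (3.13, 4.75 and 4.37 CPM in Control, 57, 4.48 and 4.77 CPM in ConA), and Thbd, thrombomodulin (3.35, 2.97 and 4.32 CPM in Control, 44.4, 4.17 and 3.86 CPM in ConA). The clotting factors made by hepatocytes that were tested stayed under 4-fold. Of 17 matrix remodelling genes listed, 12 were tested and 6 were at least 4-fold higher (median 2.21), including the secreted glycoprotein Thbs1 (0.67, 0.261 and 0.884 CPM in Control, 99, 1.13 and 0.965 CPM in ConA), the protease Adamts1 (8.86, 7.31 and 6.08 CPM in Control, 238, 8.85 and 4.94 CPM in ConA) and, named after its values were seen, the basement membrane collagen Col4a1 (35.6, 27.9 and 30.7 CPM in Control, 516, 48.9 and 26 CPM in ConA).

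Neutrophil transcripts were found in ConA 1. All 12 listed neutrophil markers were in the table and 4 were tested. Their summed level was 10.4, 8.35 and 3.64 CPM in Control and 484, 6.33 and 3.29 CPM in ConA, with 0 markers without a count in ConA 1 and 1 to 6 in the other libraries. S100a9, a subunit of calprotectin, measured 1.64, 1.51 and 0.364 CPM in Control and 261, 1.13 and 0.568 CPM in ConA. S100a8, the other subunit, measured 0.745, 0.939 and 0.416 CPM in Control and 110.5, 1.24 and 0.454 CPM in ConA. Retnlg, a granulocyte protein, measured 0.223, 0.104 and 0 CPM in Control and 21.8, 0.103 and 0 CPM in ConA. T and NK cell markers summed to 9.83, 8.56 and 5.98 CPM in Control and 46.4, 7.26 and 6.08 CPM in ConA. Within them Gzmb, a killer granule protease, measured 0.521, 0.783 and 0.78 CPM in Control and 24.8, 0.515 and 0.454 CPM in ConA, while the T cell receptor signalling chain Cd3e, named after its values were seen, stayed between 0.454 and 1.44 CPM in all 6 libraries. The share of the inflammatory transcripts that came from infiltrating cells was not tested.

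Most Kupffer cell and sinusoidal endothelial markers were lower in ConA 1, while other resident cell lists were mixed or higher. Of 12 Kupffer cell markers, all tested, 10 were lower than in Control 1 (median log2 ratio -0.74), and 0 reached 4-fold lower. Vsig4, a complement receptor of Kupffer cells, measured 25.2, 32.5 and 28.1 CPM in Control and 6.58, 24.8 and 28.1 CPM in ConA, and Clec4f, a Kupffer cell lectin, 185, 140.3 and 101 CPM in Control and 51.4, 94.5 and 86.6 CPM in ConA. Marco, a scavenger receptor on the same list, was higher in ConA 1: 18.2, 1.83 and 1.2 CPM in Control and 59.1, 2.32 and 0.908 CPM in ConA. Of 10 sinusoidal endothelial markers, 7 were lower (median -0.80), with Kdr, a receptor of vascular endothelial growth factor, at 19.8, 45.7 and 41.4 CPM in Control and 3.58, 44.2 and 44.4 CPM in ConA. Lyve1, a hyaluronan receptor, was the marker at least 4-fold higher, at 2.53, 3.08 and 1.87 CPM in Control and 24.4, 2.27 and 1.48 CPM in ConA. Among stellate cell markers 6 of 11 were lower (median -0.62), near the share over all genes, and their summed level was 517, 599.8 and 532 CPM in Control and 813, 584 and 559 CPM in ConA. Of 11 tested hepatocyte genes 5 were higher and 6 lower (median -0.26). Of 5 tested cholangiocyte markers 4 were higher, 2 of them at least 4-fold (median 1.41; 1 of 5 at 4-fold with library totals in place of TMM). In bulk tissue, fewer cells of a type and less RNA per cell cannot be told apart. Sox9, listed as a cholangiocyte marker and also made by injured hepatocytes, measured 3.5, 1.98 and 2.34 CPM in Control and 634, 2.37 and 1.65 CPM in ConA, while the cholangiocyte keratin Krt19, named after its values were seen, measured 4.84, 0.991 and 1.04 CPM in Control and 3.97, 1.54 and 2.27 CPM in ConA.

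**Figure D3:**
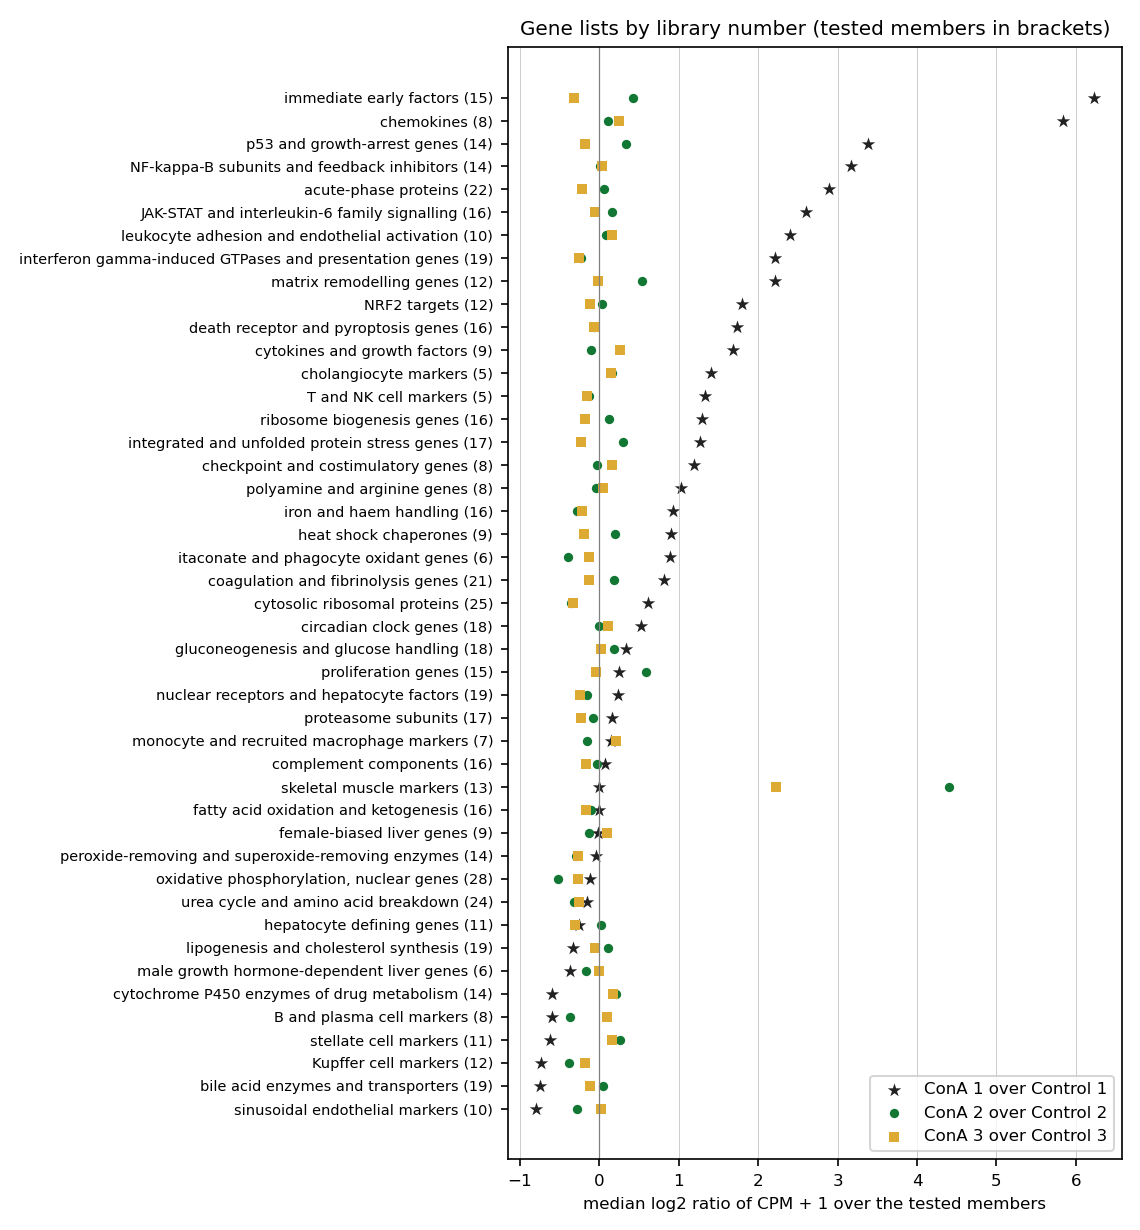
Median log2 ratio of CPM plus 1 over the tested members of each list with at least 5 of them, for ConA 1 over Control 1 (stars), ConA 2 over Control 2 (circles) and ConA 3 over Control 3 (squares). Immediate early factors lie at 6.23 in number 1, 0.42 in number 2 and -0.32 in number 3, while in numbers 2 and 3 skeletal muscle markers stand apart at 4.4 and 2.22.

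Hepatocyte metabolism differed gene by gene in number 1. G6pc, glucose-6-phosphatase, the last step of glucose release (chromosome 11, 107489085 to 107501555, plus strand, C57BL/6NJ assembly), measured 525, 62.1 and 86.8 CPM in Control and 6.97, 128 and 100.04 CPM in ConA and was 75.4-fold (59.8 to 96.5) lower in number 1. Control 1 was itself the highest library for it, and ConA 1 lay below all 5 others. Of 18 genes of glucose handling, all tested, 6 reached 4-fold higher and 1 reached 4-fold lower (median log2 ratio 0.34). Pfkfb3, which makes the activator of glycolysis, measured 5.44, 12.9 and 21.3 CPM in Control and 986, 23.6 and 24.1 CPM in ConA. Igfbp1, an insulin-repressed binding protein of growth factors, measured 46.8, 1.46 and 5.88 CPM in Control and 5331, 16.3 and 5.96 CPM in ConA, and Irs2, an insulin receptor substrate, 2.46, 5.84 and 15.5 CPM in Control and 333, 9.73 and 14.5 CPM in ConA. Among 24 genes of the urea cycle and amino acid breakdown, all tested, 2 reached 4-fold higher and 1 reached 4-fold lower: Sdsl, a serine dehydratase homologue (26.7, 9.97 and 9.1 CPM in Control, 310.4, 6.64 and 7.1 CPM in ConA), Got1, aspartate aminotransferase (234, 267 and 243 CPM in Control, 1151, 212 and 196 CPM in ConA), and Hal, histidine ammonia-lyase (698, 259.6 and 297 CPM in Control, 150.05, 257 and 257 CPM in ConA).

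Bile acid and drug metabolism genes were more often lower than higher in ConA 1. Of 19 bile acid genes, all tested, 14 were lower and 3 at least 4-fold lower, with a median log2 ratio of -0.75 against 0.05 and -0.12 in numbers 2 and 3. Nr0b2, the small heterodimer partner, which represses bile acid synthesis, measured 86.3, 39.5 and 88.5 CPM in Control and 1.64, 68.6 and 54.8 CPM in ConA. Cyp7a1, the rate-limiting enzyme of that synthesis, measured 51, 438 and 549 CPM in Control and 6.09, 606 and 504 CPM in ConA, and Abcb11, the pump that exports bile salts, 908, 423 and 585 CPM in Control and 189, 539 and 627 CPM in ConA. For Cyp7a1 Control 1 was itself far below Control 2 and Control 3. Outside the bile acid list, of 14 drug-metabolising cytochrome P450 genes tested, from 18 listed, 11 were lower and 1 at least 4-fold lower (median -0.59): Cyp4a14, a fatty acid hydroxylase, at 126, 399 and 411 CPM in Control and 12.2, 354 and 722 CPM in ConA. Of 19 lipogenesis and cholesterol genes tested, 12 were lower and 2 at least 4-fold lower, Hmgcs1, an early enzyme of cholesterol synthesis (506, 319 and 203 CPM in Control, 48.1, 344 and 205 CPM in ConA), and Insig1, which retains the SREBP factors (273, 238 and 198 CPM in Control, 64, 241 and 207 CPM in ConA). Among hepatocyte factors, Cebpb, which drives acute-phase genes, measured 97.7, 69.3 and 67.9 CPM in Control and 1869, 54.8 and 43.9 CPM in ConA, and Foxa2 measured 52.3, 45.7 and 44.5 CPM in Control and 13.2, 34.4 and 30.04 CPM in ConA. With library totals in place of TMM the median of the glucose list turned from 0.34 to -0.15 and that of the hepatocyte factors from 0.24 to -0.21, while the bile acid median went to -1.24 and the cytochrome P450 median to -0.93.

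Ribosome biogenesis and polyamine genes were higher in ConA 1. All 16 ribosome biogenesis genes were higher than in Control 1, with a median log2 ratio of 1.30, and 2 reached 4-fold: Rrp12, an exporter of ribosomal subunits (9.16, 13.9 and 17.3 CPM in Control, 80.9, 17.5 and 12.3 CPM in ConA), and Nop58, a core protein of small nucleolar particles (18.8, 18.8 and 28.6 CPM in Control, 82.1, 28.4 and 23.9 CPM in ConA). All 25 tested ribosomal protein genes were higher as well (median 0.61), and 0 reached 4-fold; with library totals in place of TMM 15 of 16 ribosome biogenesis genes but 16 of 25 ribosomal protein genes were higher (medians 0.81 and 0.11). Of 8 polyamine genes tested, 3 were at least 4-fold higher (median 1.03): Smox, spermine oxidase (3.65, 4.44 and 2.81 CPM in Control, 129, 4.27 and 3.12 CPM in ConA), Odc1, the first enzyme of synthesis (15.1, 28.3 and 39.1 CPM in Control, 268, 39.5 and 46.8 CPM in ConA), and Sat1, which acetylates polyamines for export (81.8, 62.7 and 45.6 CPM in Control, 1108, 47.6 and 44.8 CPM in ConA). Among clock genes, which already divide by number, Per1 measured 6.26, 36.1 and 21.1 CPM in Control and 436, 19.3 and 26 CPM in ConA, and the repressor Bhlhe40 44.2, 132 and 140.4 CPM in Control and 1677, 146 and 162 CPM in ConA. Nfil3, which represses output genes of the clock, measured 29.6, 9.91 and 15.4 CPM in Control and 485, 13.3 and 13.2 CPM in ConA.

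Whether the ConA effect differed between number 1 and numbers 2 and 3 was tested directly, with that division taken from these data. In edgeR's model with a mean per group and number class, 2287 genes (15.7%) had a higher and 2250 (15.4%) a lower effect in number 1 at a Benjamini-Hochberg adjusted p under 0.05. With library totals in place of TMM these counts were 1325 and 4145. Nfkbia had a log2 difference of 5.96 (SE 0.27) and Hmox1 one of 7.89 (SE 0.30), each with an adjusted p of 0.000138 in edgeR. Plscr1, an interferon-induced membrane scramblase, measured 4.69, 4.44 and 5.98 CPM in Control and 878, 5.3 and 4.54 CPM in ConA, with a difference of 7.63 (SE 0.36). Hilpda, a lipid droplet protein, measured 3.65, 1.3 and 1.61 CPM in Control and 524, 1.6 and 1.19 CPM in ConA, with a difference of 7.22 (SE 0.37). On the lower side G6pc had a difference of -6.85 (SE 0.42) with an adjusted p of 0.000221 by edgeR, and Anks4b, an ankyrin repeat gene, measured 52.7, 66.9 and 86.8 CPM in Control and 2.71, 75.9 and 65 CPM in ConA, with a difference of -4.15 (SE 0.35). By list, the effect was higher in number 1 for 13 of 14 NF-kappa-B genes tested, 21 of 22 acute-phase genes, 15 of 19 interferon gamma-induced genes and 13 of 16 ribosome biogenesis genes, and lower for 8 of 19 bile acid genes. The test has 3 residual degrees of freedom, all from libraries numbered 2 and 3, and takes the lone library numbered 1 in each group to vary like those, so its counts describe how these libraries differ and have no replicate check for number 1.

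In the libraries numbered 2 and 3, most oxidative phosphorylation and ribosomal protein genes were slightly lower in ConA, and 0 single genes passed the test in edgeR. edgeR called 0 of 14851 genes higher (0%) and 0 lower (0%), with 1725 (11.6%) at an unadjusted p under 0.05 and a smallest adjusted p of 0.414. DESeq2 called 90, of which 31 were higher and 59 lower and 9 were muscle markers. Its lower calls include Ndufb3 (adjusted p 0.0258 in DESeq2), Rpl18 (0.0191) and Etfb (0.0154), and its higher calls Me1 (0.0150), all described below. Further oxidative phosphorylation and ribosomal protein genes were called lower, such as Ndufa2 (0.0258) and Rpl8 (0.0482). With limma-voom 0 were called, and edgeR without an expression filter called 308, of which 82 had a mean under 1 CPM. At least 4-fold differences were rare: 51 genes higher (0.614%) and 4 lower (0.0481%) of 8308 in number 2, and 8 (0.0985%) and 2 (0.0246%) of 8118 in number 3. Without ConA 3, edgeR called 19 genes, all higher, and without ConA 2 it called 0. The count at an unadjusted p under 0.05 was 469 without Control 2 and 716 without ConA 3. Both ConA libraries lay above both controls for 3425 tested genes (23.5%) and below both for 3496 (23.9%), or 4381 and 2635 with library totals in place of TMM. The ordering of so few libraries alone separates some genes in this way, and how many was not tested.

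Of 28 nuclear genes of oxidative phosphorylation, all tested, 22 were below both controls in ConA 2 and ConA 3 and 1 was above both, and the median log2 ratio was -0.52 in number 2 and -0.26 in number 3. Ndufb3, a complex I subunit, measured 99.2, 44.9 and 29.96 CPM in Control and 51.9, 21.1 and 15.8 CPM in ConA. Of 25 tested ribosomal protein genes 19 were below both controls and 0 above, with medians of -0.35 and -0.33. Rpl18 measured 30.6, 16.8 and 17.9 CPM in Control and 40.1, 8.44 and 8.69 CPM in ConA, so that it was lower in numbers 2 and 3 and higher in number 1. Of 24 urea cycle and amino acid genes 16 were below both controls and 2 above. Etfb, which passes electrons from fatty acid oxidation to the respiratory chain, measured 123, 81.6 and 47.4 CPM in Control and 42.2, 31.7 and 17.3 CPM in ConA. On the higher side, after the muscle genes, Me1, malic enzyme, measured 88.1, 129 and 119 CPM in Control and 67.9, 190.4 and 191 CPM in ConA, and Lpl, lipoprotein lipase, 34.3, 7.77 and 9.78 CPM in Control and 10.9, 56.8 and 17.8 CPM in ConA. For Me1 and Lpl ConA 1 was below Control 1. Lpl was highest in ConA 2, the library that also held muscle and adrenal transcripts, and what other tissue contributed to its level was not tested. With library totals in place of TMM, 17 of 28 oxidative phosphorylation genes, 14 of 25 ribosomal protein genes and 13 of 24 urea cycle and amino acid genes were below both controls.

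Gene length moved with the ratio, more closely by rank in numbers 2 and 3 than in number 1. Genes above both controls had a median length of 5165 bases and those below both a median of 2514.5 bases, against 3548 bases over all tested genes. Tested genes were split by length into 10 bins of equal size. From the shortest to the longest bin, the share above both controls went from 9.79% to 50.0% and the share below both from 35.6% to 4.38%. The share below both was largest, at 41.5%, in the bin of 1121 to 1758 bases. That bin held the median lengths of the oxidative phosphorylation list (1745.5 bases) and the ribosomal protein list (1726 bases). The median log2 ratio over all tested genes rose between the same bins in each number. It went from -0.25 to 0.08 in number 1, from -0.18 to 0.24 in number 2 and from -0.09 to 0.23 in number 3. Across 8242 genes of at least 10 CPM on average, which are not independent replicates, the rank correlation of length with the log2 ratio was 0.436 in number 2, 0.438 in number 3 and 0.073 in number 1. The cause of this relation was not tested. With the median of the gene's length bin subtracted, a setting chosen after seeing the data, the median of the mean log2 ratio of numbers 2 and 3 went from -0.37 to -0.27 for oxidative phosphorylation, where 26 of 28 genes were below 0 after the subtraction and 25 before it. For ribosomal proteins it went from -0.35 to -0.31, and the genes below 0 went from 23 to 20 of 25. For the urea cycle and amino acid list it went from -0.30 to -0.26, and the genes below 0 from 19 to 17 of 24. The log2 ratios of numbers 2 and 3 correlated at 0.506 across the same genes, and those of number 1 with them at 0.169 and 0.028.

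**Figure D4:**
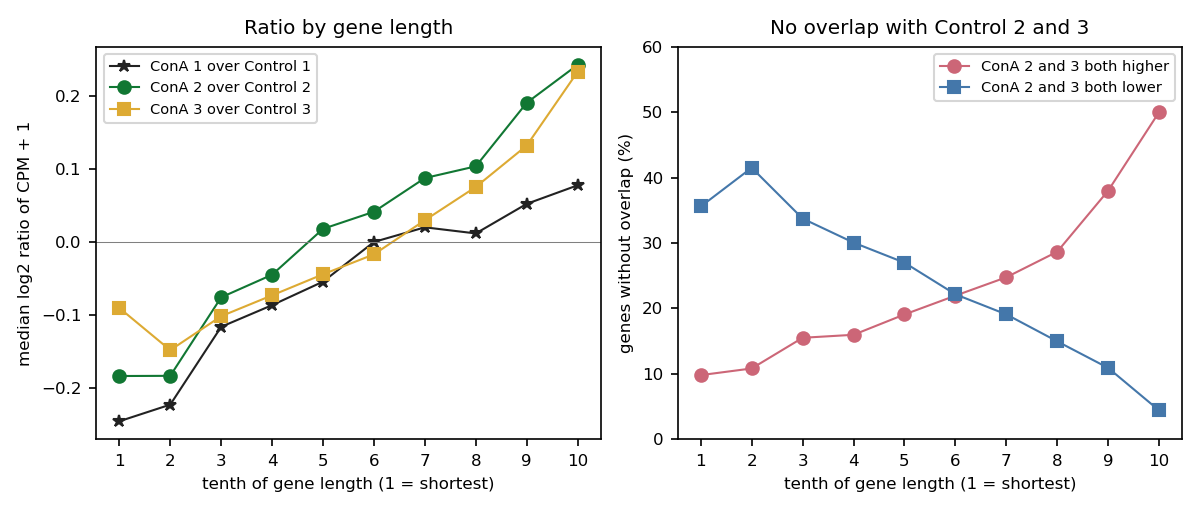
Left, median log2 ratio of CPM plus 1 by gene length, in 10 bins of equal size, for each library number. Right, percent of tested genes whose ConA 2 and ConA 3 both lie above (circles) or both below (squares) Control 2 and Control 3, by the same bins, with the share above going from 9.79% in the shortest bin to 50.0% in the longest.

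**Figure D5:**
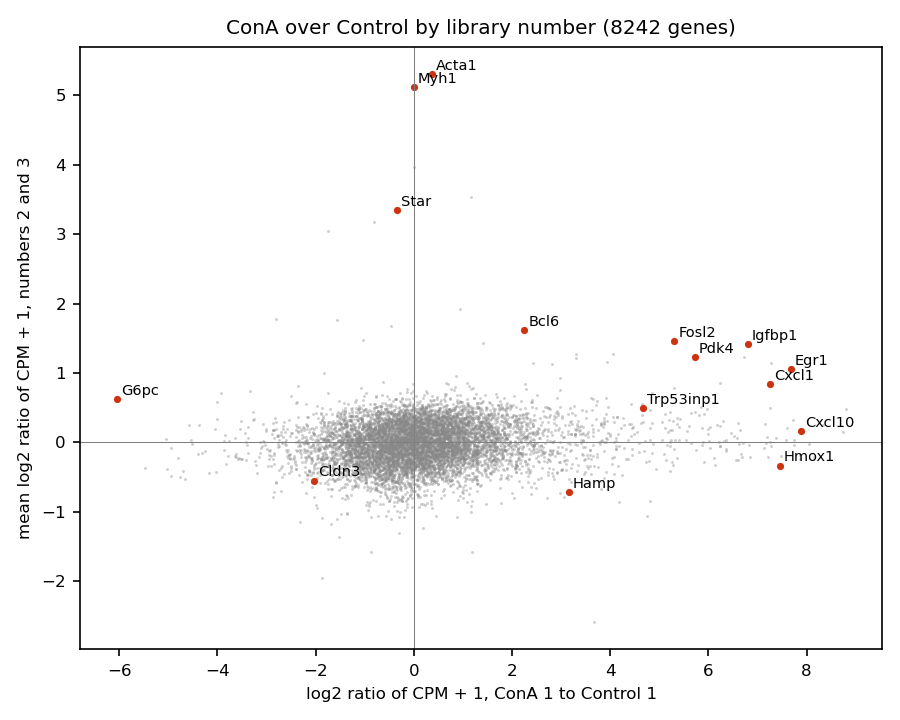
Log2 ratio of ConA to Control in number 1 (horizontal) against the mean log2 ratio in numbers 2 and 3 (vertical), 1 point for each of 8242 tested genes averaging at least 10 CPM, as ratios of CPM plus 1. The cloud is wide along the horizontal axis and narrow along the vertical one. Cxcl10 and Hmox1 lie far right near 0 on the vertical axis, the muscle genes Acta1 and Myh1 lie at the top, and Bcl6 and Fosl2 are positive on both axes.

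Some genes had 1 direction in all 3 numbers. All 3 ConA libraries lay above all 3 controls for 821 tested genes (5.62%) and below all 3 for 978 (6.7%). With library totals in place of TMM these counts were 581 and 1031. The ordering of 3 against 3 libraries alone separates some genes in this way, and how many was not tested. The counts therefore do not show a shared effect of ConA. Lengths of the separated genes differed too, with a median of 5579 bases for the higher and 2471 bases for the lower genes. By the distance between the groups, the first was Bcl6, a transcriptional repressor of inflammatory and lipid genes (chromosome 16, 22105576 to 22130646, minus strand, C57BL/6NJ assembly). Bcl6 measured 24.3, 9.13 and 19 CPM in Control and 119, 51.2 and 35.9 CPM in ConA, with means of 17.5 ± 7.69 and 68.8 ± 44.4 CPM (SD, n = 3) and a log2 fold change of 1.98 (SE 0.83) over all libraries in edgeR, with an adjusted p of 0.9997. Cxcl1 came next, with means of 6.65 ± 1.87 CPM in Control and 308 ± 509.7 CPM in ConA (SD, n = 3), the spread in ConA coming from ConA 1. Trp53inp1, a p53-induced nuclear protein, measured 17.7, 18.2 and 18.5 CPM in Control and 476, 27 and 25.4 CPM in ConA, and Nrip1, a nuclear receptor corepressor, 3.2, 9.6 and 12.2 CPM in Control and 50.1, 15.5 and 19.6 CPM in ConA. The kinase genes Rock2 and Hipk2 had similar levels in all 3 ConA libraries, with Rock2 at 16.3, 26.6 and 24.4 CPM in Control and 37.1, 36.9 and 35.7 CPM in ConA and Hipk2 at 5.81, 10.3 and 12.3 CPM in Control and 17.7, 16.5 and 20.9 CPM in ConA. Lgr4, a receptor for R-spondins in Wnt signalling, measured 35.2, 35.8 and 36.5 CPM in Control and 50.2, 46 and 46.4 CPM in ConA.

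Among genes below control in all 3 numbers, Cldn3, the tight junction protein claudin 3 (chromosome 5, 144695816 to 144697074, plus strand, C57BL/6NJ assembly), measured 161, 114 and 112 CPM in Control and 38.6, 79.9 and 74 CPM in ConA. Its means were 129 ± 27.9 and 64.2 ± 22.4 CPM (SD, n = 3). Aspdh, an aspartate dehydrogenase domain gene, measured 236, 165 and 138 CPM in Control and 89.1, 98.5 and 93.4 CPM in ConA. Tha1, threonine aldolase, measured 14.1, 15.2 and 11.9 CPM in Control and 7.55, 8.34 and 8.06 CPM in ConA. Zfp444, a zinc finger gene, measured 26.5, 35.2 and 26.6 CPM in Control and 5.71, 17.9 and 16.6 CPM in ConA, and Fam89a 15.2, 12.3 and 12.2 CPM in Control and 2.03, 7.57 and 7.67 CPM in ConA. ConA 1 was the lowest of the 6 libraries for each of these 5 genes. None of the 10 genes named for each direction by this distance passed the test over all libraries in edgeR (adjusted p = 0.9997), and the counts change with each library left out: without ConA 1 they were 2769 higher and 2774 lower, and without ConA 2 1280 and 1582.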

How the data were processed

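Whole-liver RNA was sequenced, and the table holds counts per gene deposited by the authors without normalization, with identifiers and coordinates of the C57BL/6NJ assembly. A second table of FPKM deposited by the authors served for 1 alternative only, limma on log2(FPKM + 1). The aligner Bowtie 0.12.2 and, as genome builds, mm8 and mm10 are named per the submitters' processing notes, and how reads were assigned to genes, and whether strand was used, is not given in the sources used here. All 18 columns matched a library label; nothing states that replicates were pooled. Reads of paralogs and overlapping genes may be split or shared.

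Counts were tested with edgeR 4.0.16 in R 4.3.3 (TMM, filterByExpr by group, quasi-likelihood test with Benjamini-Hochberg adjustment) over 9 libraries with 6 residual degrees of freedom, again in libraries numbered 2 and 3, and for the difference between number classes. DESeq2 1.42.0 and limma 3.58.1 (voom) were alternatives, as were scaling, filters, a replicate block and leaving out libraries. Ratios within 1 number used CPM + 1, at least 10 CPM and 4-fold, and exact 95% limits of the ratio of 2 counts; intervals and floors of 3 counts cover counting error only. P-values measure only the spread between these samples. The SE of an edgeR value is the absolute log2 value divided by the square root of the test's F statistic, so it restates that test. The 6 libraries held 14137973 to 17276391 counts, so that 1 count is worth 0.0515 to 0.0967 CPM. Same-numbered ConA and Control libraries deviated together from their group means (correlations 0.483, 0.349 and 0.453), so the numbers were used as pairs in the block. Numbers 2 and 3 also deviated together across numbers (0.391 for ConA 3 with Control 2 and 0.313 for ConA 2 with Control 3), while number 1 against either ran from -0.496 to -0.384, so these values separate number 1 from the others but not number 2 from 3. The labels do not say what the number marks.

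Of 774 entries in 49 gene lists, 707 matched by symbol and 1 by synonym. Promoter windows came from RefSeq on GRCm38.p6. The lists, tests and named genes were chosen with earlier results of these data known. Named genes were up to 4 per list by absolute log2 ratio in number 1 with at least 10 CPM; the 12 most extreme ratios each way in number 1 among genes reaching 50 CPM; the 10 farthest without overlap each way, in numbers 2 and 3 and in all 3 numbers; the 10 smallest p each way of a test with calls; 6 genes of the division by number; and 5 reference genes. Others, among them Myh2 and Atp2a1 called by DESeq2, were named after their values were seen. The scripts were tested on simulated data. Some genes that these rules name are not reported here.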

Additional observations from a re-analysis of the deposited data

Results flagged for a closer look

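In a test by edgeR of the difference in ConA effect between the libraries numbered 1 and those numbered 2 and 3, 4537 genes passed, 2287 of them with a higher and 2250 with a lower effect in number 1. The division by number was taken from these data, and with 1 library numbered 1 per group all spread in the test comes from numbers 2 and 3. As a log2 difference of effects, number 1 minus numbers 2 and 3, the 10 genes with the smallest p on the higher side measured 8.96 for Tnfaip3, 7.89 for Hmox1, 7.63 for Plscr1, 7.45 for the chemokine Cxcl9, 7.22 for Hilpda, 7.17 for the immediate early factor Csrnp1, 6.56 for Icam1, 6.21 for the zinc finger factor Klf6, 5.96 for Nfkbia and 5.19 for the arrestin family gene Arrdc4. On the lower side they measured -6.85 for G6pc, -4.82 for Zfp950, -4.79 for Gm12909, -4.15 for Anks4b, -4.12 for Tmie, -3.83 for the mitochondrial carrier Slc25a45, -3.50 for the sphingosine 1-phosphate exporter Spns2, -3.21 for Hsd3b2, -2.90 for 0610031O16Rik and -2.76 for Fahd1. In all 20 genes ConA 1 lay outside the range of the 5 other libraries. Each group has 1 library numbered 1, and sex-linked and strain-linked transcripts divide with the number, so what sets the difference cannot be told apart here.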

How the results depend on the processing

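For ConA against Control over all libraries, edgeR called 0 genes under every alternative run with it, and DESeq2 called 2, both higher. With a replicate block for library number edgeR called 0 as well, with 637 unadjusted p under 0.05, and in numbers 2 and 3 it called 0 with 1527; the block changed no call. In numbers 2 and 3, DESeq2 called 90 genes (31 higher, 59 lower), edgeR without an expression filter 308 (207 higher, 101 lower), and leaving out 1 library at a time gave 0 to 19, all higher, the 19 without ConA 3. Leave-outs that leave 1 library in a group assume that it varies like the others. The difference between number 1 and numbers 2 and 3 held 1325 higher and 4145 lower genes with library totals in place of TMM, and 3071 to 4659 in all when 1 library was left out (1576 to 2440 higher, 1495 to 2251 lower). The 4-fold counts in number 1 went from 858 and 351 to 539 and 629 with library totals, to 151 lower with a pseudocount of 5 CPM, and to 555 and 119 at a minimum of 50 CPM. The counts against all 5 other libraries went to 346 and 328 with library totals, to 36 lower with the pseudocount of 5 and to 39 lower at 50 CPM. Leaving out 1 of the 5, chosen after seeing the data, gave 593 to 816 higher and 129 to 245 lower, the extremes of 816 and 245 without Control 1. The counts without overlap in all 3 numbers ran from 1139 to 2769 higher and from 1255 to 2774 lower when 1 library was left out, also chosen after seeing the data; the largest were without ConA 1, and fewer libraries make a gap more likely by construction. Of the alternative log2 ratios of single genes in number 1, 445 left the main value's counting interval and 279 stayed within it. Of those past 4-fold, 0 changed sign. A larger pseudocount cannot change a sign. Scaling moved the median log2 ratio over all tested genes only from -0.05 to -0.03 (RLE) or -0.41 (library totals). For these settings the count of 0 was therefore nearly fixed in advance. For the difference, only the genes listed above by smallest p on each side were followed, and in their 280 alternative values 0 lost the call. They were chosen for that small p, so this does not extend to the other called genes. Some of the other genes lost their call, since the total called was lower in some leave-outs. For the other changes the cause was not tested. Depth limits genes under 3 counts, 0.154 to 0.290 CPM.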

Other observations

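Stress lists outside the main comparisons were mixed in number 1. Of 17 genes of the integrated and unfolded protein stress responses, all tested, 13 were higher in ConA 1 and 2 at least 4-fold higher (median log2 ratio 1.27): Ddit4, an inhibitor of the growth kinase mTORC1, at 11.8, 3.76 and 2.96 CPM in Control and 484, 3.55 and 3.35 CPM in ConA, and Chac1, which degrades glutathione, at 1.86, 0.731 and 0.728 CPM in Control and 40.4, 0.463 and 1.36 CPM in ConA. Of 9 heat shock chaperones tested, 2 were at least 4-fold higher: Bag3, a cochaperone, at 28.1, 44.7 and 47.9 CPM in Control and 128, 46.8 and 33.6 CPM in ConA, and Hspb1, a small chaperone, at 1.12, 0.261 and 0.052 CPM in Control and 10.5, 0.412 and 0 CPM in ConA. Peroxide and superoxide removing enzymes had 0 of 14 genes past 4-fold (median -0.04), fatty acid oxidation 1 of 16 higher (median -0.01), complement 2 of 16 higher (median 0.07) and proteasome subunits 0 of 17 (median 0.16). All 8 tested B and plasma cell markers were lower in ConA 1 (median -0.60), with 0 past 4-fold. Only 2 of them reached 10 CPM in ConA 1 or Control 1, and of all tested genes that did so 46.6% were lower. The 9 B and plasma cell markers matched summed to 39.5 CPM in Control 1 and 19.8 CPM in ConA 1. Among monocyte and macrophage markers 4 of 7 were higher (median 0.15). With library totals in place of TMM, 3 medians turned: to -0.34 for complement, with 0 of 16 past 4-fold, to -0.33 for the proteasome, with 3 of 17 higher in place of 11, and to -0.26 for the monocyte list, with 3 of 7 higher.

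Adipocyte markers were mixed in ConA 1. Of 8 listed, 4 had no count in ConA 1 and 0 had none in ConA 2, and of the 4 tested 3 were higher and 1 lower in ConA 1 than in Control 1. The summed level of all 8 was 3539, 3407 and 3222 CPM in Control and 1429, 3652 and 3221 CPM in ConA, and Car3, a carbonic anhydrase also made by liver, held 3523, 3394 and 3215 CPM and 1285, 3544 and 3211 CPM of it. Fabp4, which carries fatty acids in adipocytes and macrophages, measured 12, 7.77 and 5.36 CPM in Control and 90.3, 39.3 and 5.56 CPM in ConA, and Cidec, a lipid droplet protein also made by fatty liver, 3.28, 3.65 and 2.6 CPM in Control and 52.4, 10.5 and 2.44 CPM in ConA. The haemoglobin gene Hba-a1 measured 4.54, 11.9 and 10.5 CPM in Control and 28.9, 12.5 and 53 CPM in ConA, highest in ConA 3. Timp3, a protease inhibitor of the matrix list, measured 2.16, 4.07 and 5.25 CPM in Control and 30.1, 23.4 and 6.59 CPM in ConA, so that ConA 2 was high as well as ConA 1. The genes of this paragraph were named after their values were seen.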
